A study of Homo sapiens with 15 samples.

Results

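The comparison described here sets RPMI-8226 myeloma cells after 24 h of KB528 against the same line after 3 h of KB528, to follow which transcripts lost or gained at 3 h had come back by 24 h. RPMI-8226 is an established line from a human multiple myeloma, a cancer of plasma cells, and KB528 is given by the submitters as an inhibitor of the acetyltransferase (KAT) activity of p300. Cells received 100 nM KB528 for 1, 3, 6 or 24 h, or the solvent DMSO (0 h), in medium with 10% fetal bovine serum, and polyadenylated RNA was sequenced in 3 libraries per group. The comparison uses the 3 libraries of 24 h and the 3 of 3 h, 6 of the 15, with the DMSO libraries as the starting level. Genes were taken from the deposited table without its spike-in rows, where the mean over the 15 libraries was at least 1 TPM (the length-normalised share of a transcript in its library), which kept 12002 of 26364 gene rows. BEND6 (mean 1.002 TPM) and DZIP3 (1.0021) lay just inside that limit and MME (0.99965) and EML6 (0.99838) just outside. DMSO was sampled at 0 h alone, so time in culture and KB528 cannot be told apart at 24 h. The sources used here do not say whether the libraries of a group are separate cultures, and p-values therefore describe the spread between libraries, which may be technical.

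The protein p300, encoded by EP300, and its relative CREBBP are coactivators that transcription factors bring to enhancers and promoters, where they acetylate histones and other proteins and help RNA polymerase II to start and elongate. Plasma cells and the myelomas that arise from them depend on a small circuit of transcription factors, among them IRF4, PRDM1, XBP1 and the Ikaros proteins IKZF1 and IKZF3, and on a large secretory apparatus. HEXIM1 holds the elongation kinase P-TEFb in an inactive complex, and CDKN1A encodes p21, an inhibitor of cyclin-dependent kinases.

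Plasma cell and myeloma markers were all expressed (11 of 11 tested). Their summed level was 4302 to 4450 TPM in DMSO, 3735 to 3866 TPM at 3 h and 2342 to 2394 TPM at 24 h. MZB1 was the largest part of it, with means of 2618, 2231 and 1172 TPM. Between 3 h and 24 h 6 of the 11 were called lower and 3 higher (19.9% and 56.2% of all tested genes). MAF, for example, rose from a mean of 185 to 282 TPM. Summed T and NK cell markers reached at most 4.54 TPM, with CD3D and CD2 at 0, and summed monocyte markers at most 3.43 TPM, with S100A8 and ELANE at 0. Of 9 epithelial markers 5 were tested, mostly EPCAM and KRT18, and their sum was 262 to 264 TPM at 3 h and 232 to 241 TPM at 24 h. Relative depth, read from the steps between low values, was 0.988 to 1.063 times that of DMSO replicate 1 at 3 h and 0.811 to 0.869 times at 24 h. The spike-ins took 13.7% to 16.6% of TPM at 3 h and 12.2% to 14.5% at 24 h, and small RNA genes took 1.54% to 1.55% at 3 h and 0.984% to 1.06% at 24 h. The part of these differences in the results was not tested.

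Between 3 h and 24 h most of the transcriptome moved again. In the limma fit over all 12002 genes (adjusted p under 0.05) 9131 genes differed (76.1%), of which 6747 were higher at 24 h (56.2%) and 2384 lower (19.9%). Changes of at least 1 on the log2(TPM + 1) scale were found for 791 genes that rose (6.59%) and 263 that fell (2.19%). The 3 libraries of 24 h all lay above the 3 of 3 h for 6874 genes (57.3%) and all below for 2512 (20.9%). The balance of rises and falls depended on the scaling: over all genes the median log2 change was 0.23 in TPM as deposited, 0.05 after median-ratio scaling, -0.01 after a trend with transcript length was removed and 0.42 after scaling to the spike-ins. With median-ratio scaling there were 5081 rises (42.3%) and 4052 falls (33.8%). It lowers 24 h against 3 h by 0.20 in log2 TPM, and by less for low genes on the log2(TPM + 1) scale. With the length trend removed there were 4403 rises and 4578 falls. Spike-in scaling, which raises 24 h against 3 h by 0.21 in log2 TPM and by less for low genes, gave 5904 and 667.

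At 3 h 3836 genes had been lost relative to DMSO (32%) and 2991 gained (24.9%), or 34.2% and 27.9% of tested genes with median-ratio scaling. The groupings that follow use 3 contrasts that share libraries (24 h against 3 h, 3 h against DMSO and 24 h against DMSO), so a high value at 3 h favours both a gain and a later fall, and the counts are descriptions. Of the 3836 lost genes 3136 (81.8%) moved back up by 24 h. At 24 h 1923 of them were called above DMSO (50.1% of the lost genes), 958 were not called against DMSO (25%) and 255 were still below it (6.65%). A further 264 lost genes fell again (6.88%) and 436 were not called between 3 h and 24 h (11.4%). Against DMSO, 56.1% of all tested genes were called higher at 24 h and 15.2% lower (37.1% and 29.9% with median-ratio scaling). The genes that went past DMSO had median log2 fold changes of -0.34 at 3 h against DMSO and 0.81 at 24 h against 3 h. With median-ratio scaling 1472 lost genes went past DMSO, 1295 of them the same genes, and 1062 of the 1923 did so both with it and with the length trend removed. With spike-in scaling, which called fewer genes against DMSO, 518 lost genes went past DMSO and 1496 were not called against it at 24 h.

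Of the 2991 gained genes 1540 (51.5%) moved back down. At 24 h 386 were called below DMSO (12.9% of the gained genes), 767 were not called against DMSO (25.6%) and 387 were still above it (12.9%). Another 477 rose further (15.9%), and 974 were not called between 3 h and 24 h (32.6%). The number that rose further was 311 without replicate 1 of 3 h. The share of gained genes that fell back depended on the scaling, and was 70.3% with median-ratio scaling and 72.4% with the length trend removed, where 71.9% and 68.5% of lost genes moved back up. Gained genes below DMSO at 24 h then numbered 951 and 1151, and 342 of the 386 were among them under both. These 386 genes included 320 protein-coding genes and 50 small RNA genes, whose short transcripts are uncertain in this assay.

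**Figure D1:**
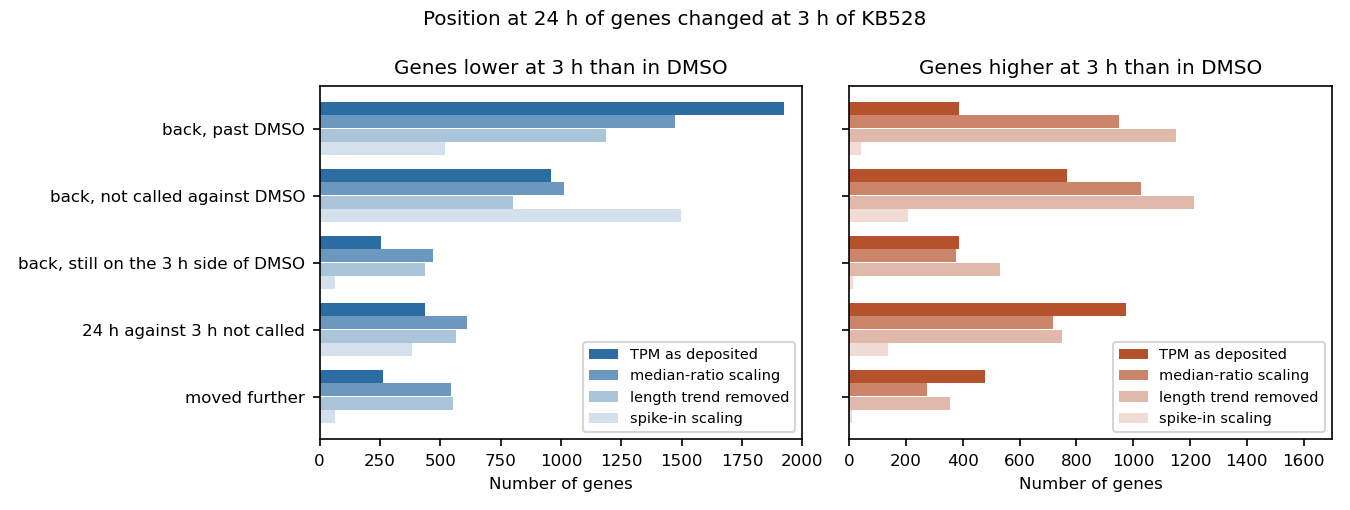
Number of genes (horizontal axis) by their position at 24 h, for genes lower at 3 h than DMSO (left) and higher (right), with 1 bar each for TPM as deposited, median-ratio scaling, removal of the length trend and spike-in scaling. The bar of lost genes past DMSO is the longest on the left in deposited TPM, median-ratio scaling and length correction (1923, 1472 and 1187) but not in spike-in scaling (518, against 1496 not called against DMSO), while on the right the 4 give 386, 951, 1151 and 42 genes below DMSO.

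The return was spread over the interval. Its shares are descriptions, because the 3 h, 24 h or DMSO libraries that chose the genes enter each of them again. Of the 3136 lost genes that moved back, 1578 (50.3%) were already called up at 6 h against 3 h, where 42.3% of all tested genes were, and 2606 (83.1%) were called up from 6 h to 24 h, where 41% of all were. At 6 h 365 of them had first fallen further. Of the 1540 gained genes that moved back, 499 (32.4%) were called down by 6 h against 13.7% of all tested genes, and 1298 (84.3%) from 6 h to 24 h against 26% of all. At 1 h 909 (59%) of the gained genes that fell back were already called higher than the same DMSO libraries, against 15% of all tested genes. Of the rebounding lost genes 592 (18.9%) were already called lower at 1 h, against 7.57% of all.

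Promoters of 4 genes that stand for the main patterns are shown as the 250 bases before the transcription start, from the RefSeq promoter table of GRCh38.p14. They are CALHM2 (lost, then past DMSO, chr10:103452371-103452620, minus strand), BTG2 (lost, then returned, chr1:203305269-203305518, plus strand), CDKN1A (gained, then below DMSO, chr6:36678464-36678713, plus strand) and HEXIM1 (gained, then returned, chr17:45148225-45148474, plus strand). Capitals mark matches, on either strand, to CCAAT, to the E-box CACGTG and to the TATA box TATAAA. TGACGTCA, the full cyclic AMP response element, was searched as well and not found in these windows.
CALHM2: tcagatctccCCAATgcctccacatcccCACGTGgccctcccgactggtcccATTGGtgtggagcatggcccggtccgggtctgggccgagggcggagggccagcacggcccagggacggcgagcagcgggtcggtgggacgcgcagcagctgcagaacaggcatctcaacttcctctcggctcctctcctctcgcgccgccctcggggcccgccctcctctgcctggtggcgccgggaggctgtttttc
BTG2: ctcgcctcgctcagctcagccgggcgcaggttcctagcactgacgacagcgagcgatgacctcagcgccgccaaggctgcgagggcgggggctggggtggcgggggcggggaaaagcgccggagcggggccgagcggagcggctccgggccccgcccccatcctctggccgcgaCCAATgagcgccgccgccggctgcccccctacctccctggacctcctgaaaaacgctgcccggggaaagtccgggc
CDKN1A: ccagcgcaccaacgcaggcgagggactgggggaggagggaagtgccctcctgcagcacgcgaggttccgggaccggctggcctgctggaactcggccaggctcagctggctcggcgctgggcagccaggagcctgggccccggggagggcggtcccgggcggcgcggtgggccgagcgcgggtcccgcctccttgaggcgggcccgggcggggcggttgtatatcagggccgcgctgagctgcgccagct
HEXIM1: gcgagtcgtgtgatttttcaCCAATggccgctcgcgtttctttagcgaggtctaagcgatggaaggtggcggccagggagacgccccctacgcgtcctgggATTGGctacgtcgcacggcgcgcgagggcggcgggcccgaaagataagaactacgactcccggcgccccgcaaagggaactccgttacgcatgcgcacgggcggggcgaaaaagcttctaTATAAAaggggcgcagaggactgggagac
CALHM2 held CCAAT 240 and 198 bases before its start with an E-box between them at 222, BTG2 a single CCAAT at 76, and HEXIM1 a CCAAT at 230 and at 149 and a TATA box at 29. None of the 4 motifs was found in the CDKN1A window, which says only that these letters are not in it. In the table CCAAT occurred in 33% of 27305 promoters and in 36.3% of the 9282 that matched tested genes (77.3% of tested genes). It occurred in 43.4% of the 274 promoters of genes gained and then below DMSO, in 42% of the 567 of genes gained and then returned, in 37.6% of the 1525 of genes lost and then past DMSO and in 29.6% of the 739 of genes lost and then returned. TATAAA occurred in 8.76%, 9.17%, 4.2% and 4.87% of the same 4 groups and in 5.02% of all tested promoters. The E-box occurred in 11.7%, 9.17%, 8.2% and 11%, against 9.25% of all tested promoters. The full cyclic AMP response element occurred in 3.28%, 3.88%, 1.7% and 1.35%, against 3.12% of all tested promoters. These shares are descriptions of a window of fixed length, with 1 promoter per gene.

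Among lost genes that went past DMSO, the 8 largest rises between 3 h and 24 h included a channel gene, a chemokine receptor, a phosphatase and an inhibitor of transcription factors. CALHM2, a calcium homeostasis modulator channel gene with the first promoter shown above, was at 5.44, 4.58 and 5.54 TPM in DMSO, at 0.74, 0.605 and 0.852 TPM at 3 h and at 12.3, 13.1 and 13.7 TPM at 24 h. The 3 groups did not overlap, with 3 h lowest and 24 h highest. CALHM2 rose by 3.02 from 3 h to 24 h on the log2(TPM + 1) scale (SE 0.08, adjusted p = 2.89e-13) and stood 1.18 above DMSO.

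CCR2, the receptor of the monocyte chemoattractant CCL2, was at 9.34, 8.01 and 8.63 TPM in DMSO, 2.06, 2.24 and 2.53 TPM at 3 h and 20.6, 20.3 and 18.7 TPM at 24 h, a rise of 2.67 (SE 0.08, adjusted p = 5.93e-13). ID3, an inhibitor of E-box binding transcription factors in B cells, was at 13.5, 12.5 and 13.4 TPM in DMSO, 7.2, 5.95 and 8.38 TPM at 3 h and 39.6, 39.5 and 39.4 TPM at 24 h, a rise of 2.32 (SE 0.10, adjusted p = 2.5e-11). In both genes each 24 h library lay above every DMSO library, and each 3 h library below. ID3 and CCR2 were still low at 6 h (means of 6.25 and 3.00 TPM), while CALHM2 had reached 5.90 TPM by then. PEX5L rose by 2.84 and TMEM140 by 2.57 from 3 h to 24 h, to 1.84 and 0.88 above DMSO. MFI2-AS1, an antisense RNA, rose by 2.42.

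DUSP5, which encodes a nuclear phosphatase of ERK, fell furthest of these at 3 h on the log2(TPM + 1) scale. In TPM its 3 h mean was 0.185 times that of DMSO, against 0.141 for CALHM2 and 0.156 for PRAMEF4. DUSP5 came back to about its starting level. It was at 146, 134 and 155 TPM in DMSO, 27.2, 25.4 and 27.7 TPM at 3 h and 159, 162 and 162 TPM at 24 h. Its rise of 2.54 (SE 0.05, adjusted p = 7.68e-14) put it 0.15 above DMSO in TPM as deposited (adjusted p = 0.0166), and with median-ratio scaling it was not called against DMSO (-0.05, adjusted p = 0.228). PRAMEF4, a member of a multi-copy family whose reads may be split, rose by 2.53 and was likewise past DMSO in deposited TPM (0.25) and not with median-ratio scaling (0.06, adjusted p = 0.286). The other 6 of the 8 were past DMSO under both scalings.

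Lost genes that returned to DMSO or stopped short of it included fast response genes. CITED2, which encodes a protein that binds the CH1 domain of p300 and CBP, was at 218, 202 and 242 TPM in DMSO, 35.9, 37.4 and 39.7 TPM at 3 h and 196, 202 and 196 TPM at 24 h. The 24 h libraries lay far above those of 3 h and at the lower end of DMSO, where the ranges met at 202 TPM. CITED2 rose by 2.36 (SE 0.06, adjusted p = 9.97e-14), which is 94.0% of its loss on the log2(TPM + 1) scale. BTG2, an antiproliferative gene and p53 target, was at 109, 104 and 129 TPM in DMSO, 27.9, 27.4 and 29.4 TPM at 3 h and 126, 126 and 124 TPM at 24 h. It rose by 2.11 (SE 0.06, adjusted p = 5.93e-13), was already at 125 TPM at 6 h, and was not called against DMSO at 24 h (0.14, adjusted p = 0.0526).

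SSTR3, a somatostatin receptor gene, was at 45.7, 42.9 and 49.0 TPM in DMSO, 6.01, 6.16 and 6.24 TPM at 3 h and 37.4, 37.9 and 35.4 TPM at 24 h. It was still at 7.21 TPM at 6 h, so its rise of 2.41 (SE 0.07, adjusted p = 7.23e-13) fell between 6 h and 24 h, and all 24 h libraries stayed below DMSO. RTP4, an interferon-inducible gene, rose by 2.21, TMCC2 by 2.05 and APOL2, an apolipoprotein L gene, by 1.82. RTP4 and APOL2 were not called against DMSO at 24 h (0.09 and 0.08, adjusted p = 0.511 and 0.225), although APOL2 was called below it with median-ratio scaling (-0.11, adjusted p = 0.0446). TMCC2 remained 0.24 below DMSO.

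**Figure D2:**
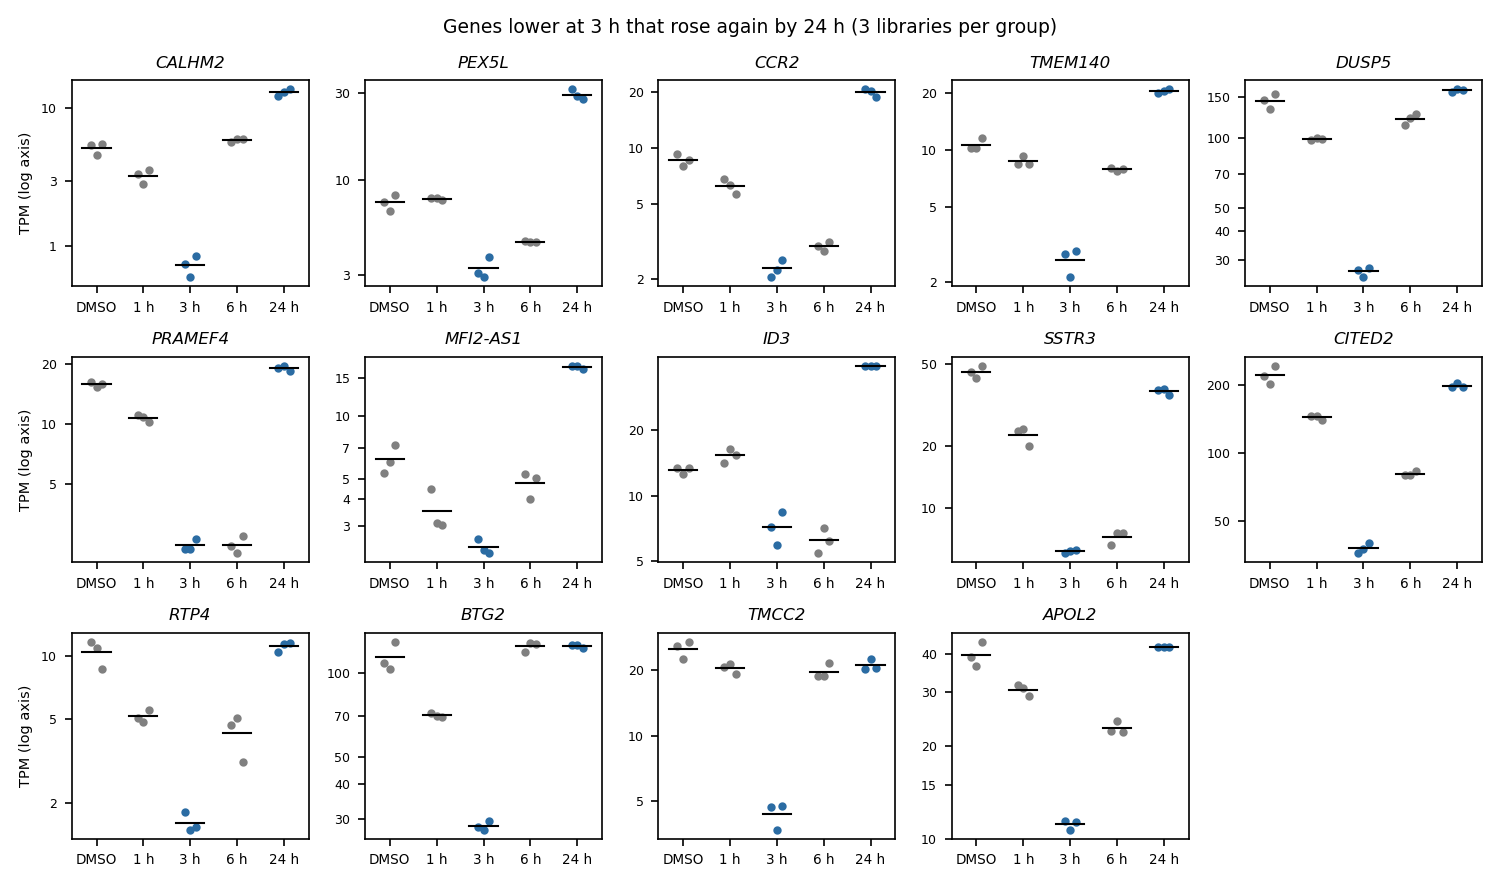
TPM (log axis, own range per gene) in each of the 15 libraries for 14 genes lower at 3 h than in DMSO and higher again at 24 h, with points for libraries, black lines for group means and 3 h and 24 h in blue. The first 8 genes, CALHM2 to ID3, were past DMSO at 24 h in deposited TPM, and SSTR3, CITED2 and TMCC2 were called below it.

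Genes gained at 3 h that dropped below DMSO by 24 h were led by CDKN1A. It was at 17, 17 and 21.3 TPM in DMSO, 56.6, 53.8 and 55.4 TPM at 3 h and 4.64, 3.82 and 3.86 TPM at 24 h. All 3 libraries of 24 h lay below every DMSO library. CDKN1A fell by 3.47 from 3 h to 24 h (SE 0.08, adjusted p = 7.97e-14) and was 1.93 lower than in DMSO on the log2(TPM + 1) scale (log2 fold change -1.93). Its mean had been 159 TPM at 1 h and was 9.30 TPM at 6 h, already under the DMSO level.

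INSIG1, an endoplasmic reticulum protein that holds back sterol synthesis and is itself a target of SREBP factors, was at 207, 178 and 203 TPM in DMSO, 266, 275 and 283 TPM at 3 h and 56.1, 55.0 and 57.2 TPM at 24 h. It fell by 2.27 (SE 0.06, adjusted p = 1.06e-13), and the 3 groups did not overlap. GADD45B, a stress-inducible regulator of MAP kinase signalling, was at 59.9, 56.6 and 61.7 TPM in DMSO, 88.6, 93.6 and 95.0 TPM at 3 h and 24.0, 25.3 and 23.9 TPM at 24 h. It fell by 1.88 (SE 0.04, adjusted p = 8.34e-14). PDGFA, a platelet-derived growth factor chain, fell by 1.94, AMIGO3 by 2.02 and RGS16, a regulator of G protein signalling, by 1.77, each to below DMSO in all 3 libraries.

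SRSF6, an SR splicing factor gene, and SERTAD1, a regulator of CDK4, ended close to DMSO. SRSF6 was at 80.8, 69.8 and 84.5 TPM in DMSO, 233, 237 and 244 TPM at 3 h and 71.8, 71.1 and 67.9 TPM at 24 h, so that its 24 h libraries overlapped the lower end of DMSO. It fell by 1.75 (SE 0.06, adjusted p = 1.7e-12) and was called 0.15 below DMSO (log2 fold change -0.15, adjusted p = 0.0245). SERTAD1 fell by 1.67 to 0.17 below DMSO (log2 fold change -0.17). All 8 genes of this group were called below DMSO with median-ratio scaling too. That scaling lowers 24 h against DMSO by 0.20 in log2 TPM, so this agreement carries little weight. Spike-in scaling left 42 gained genes below DMSO in all, against 386 in deposited TPM, and is not given here for these 8.

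RRAD, a Ras-related GTPase gene, fell furthest of the named genes and returned to a very low level. It was at 0.282, 0.274 and 0.45 TPM in DMSO, 24.4, 24.5 and 25.3 TPM at 3 h and 0.204, 0.38 and 0.0837 TPM at 24 h. The 24 h libraries overlapped those of DMSO and rest on few reads. RRAD fell by 4.40 (SE 0.10, adjusted p = 7.97e-14), with 3.11 TPM on average at 6 h, and was not called against DMSO (-0.13, adjusted p = 0.241).

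HEXIM1, whose promoter with a TATA box is shown above, was at 16.9, 15.9 and 18.0 TPM in DMSO, 83.9, 76.2 and 89.2 TPM at 3 h and 17.1, 18.0 and 15.9 TPM at 24 h. The 24 h and DMSO libraries covered the same range, 15.9 to 18.0 TPM. HEXIM1 fell by 2.22 (SE 0.10, adjusted p = 6.52e-11), which is 99.8% of its gain, and had still been at 59.3 TPM at 6 h. NXF1, the main export receptor of mRNA, was at 46.1, 43.0 and 51.1 TPM in DMSO, 138, 128 and 142 TPM at 3 h and 48.8, 48.0 and 45.5 TPM at 24 h, and fell by 1.5 (SE 0.06, adjusted p = 1.74e-11).

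FAM222A fell by 2.38 and was not called against DMSO, while the microRNA host transcript MIR663AHG fell by 2.39 and stayed 0.65 above DMSO. HIST1H4C, a replication-dependent histone gene from a multi-copy family whose reads are uncertain, fell by 1.57 and stayed 0.34 above. With median-ratio scaling FAM222A and NXF1 were called below DMSO (-0.22 and -0.17), and HIST1H4C was not called against it (0.16).

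**Figure D3:**
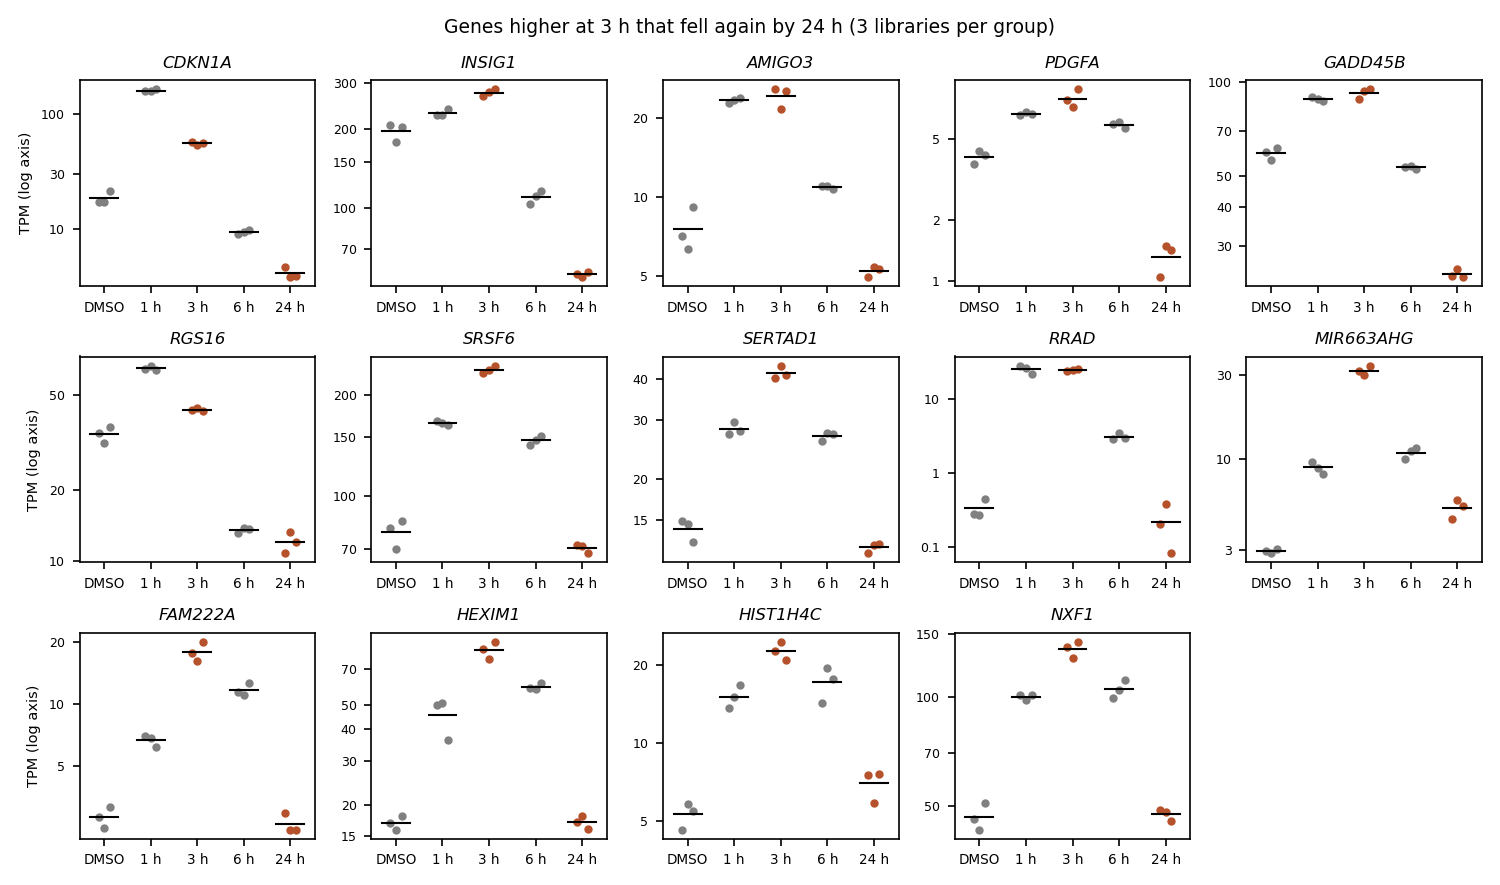
TPM (log axis, own range per gene) in each of the 15 libraries for 14 genes higher at 3 h than in DMSO and lower again at 24 h, with points for libraries, black lines for group means and 3 h and 24 h in orange. CDKN1A to SERTAD1 were called below DMSO at 24 h, although libraries of SRSF6 overlapped it. HEXIM1, NXF1, FAM222A and RRAD overlapped DMSO and were not called against it.

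A smaller group kept moving in the direction of 3 h. The genes named for it were chosen with the libraries of DMSO, 3 h and 24 h all apart in that order. FOS, an AP-1 subunit, was at 38.6, 35.0 and 55.8 TPM in DMSO, 5.39, 5.41 and 5.92 TPM at 3 h and 1.17, 0.947 and 0.878 TPM at 24 h. It fell by a further 1.72 (SE 0.13, adjusted p = 1.13e-08) and was at -4.44 against DMSO. The keratin genes KRT6C and KRT15, which epithelia express and this line transcribes, fell by 2.67 and 1.72 from 3 h to 24 h. KRT6C has near-identical relatives, so its share of reads is uncertain. MT1A, a metallothionein, fell by 2.12, EDN2, an endothelin, by 1.5 and PNOC, the precursor of nociceptin, by 1.49.

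Of gained genes that rose further LTF, which encodes the iron-binding protein lactotransferrin, rose most. It was at 8.21, 7.57 and 8.57 TPM in DMSO, 21.3, 19.4 and 21.3 TPM at 3 h and 68.1, 67.0 and 65.7 TPM at 24 h. LTF rose by 1.65 (SE 0.06, adjusted p = 1.12e-11) and was 2.90 above DMSO. CXCL10, an interferon-inducible chemokine, rose by a further 0.85, from 14.9, 17.2 and 16.6 TPM at 3 h to 31.9, 28.0 and 29.8 TPM at 24 h. SDHAF4, an assembly factor of succinate dehydrogenase, rose by 1.18, EXT2, a heparan sulfate polymerase, by 0.91, PRAF2 by 0.89 and the pseudogene DSTNP2, whose reads may come from its parent, by 0.85. The choice of the 12 genes of these 2 groups required the same calls under median-ratio scaling, so their agreement there was fixed in advance.

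Other genes changed between 3 h and 24 h from a level that was not called against DMSO at 3 h. HMOX1, the heme oxygenase that NRF2 induces, was at 147, 145 and 162 TPM in DMSO, 149, 142 and 150 TPM at 3 h and 561, 582 and 564 TPM at 24 h. DMSO and 3 h overlapped, and 24 h was apart from both. HMOX1 rose by 1.95 from 3 h (SE 0.05, adjusted p = 1.06e-13) and was at 473 TPM by 6 h. AKR1C1, an aldo-keto reductase and NRF2 target with near-identical relatives, rose by 2.10, COL9A2 by 1.58, CCDC24 by 1.45 and MYL1 by 1.41.

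BHLHA15 (MIST1), a transcription factor of secretory cells that acts downstream of XBP1, was at 161, 151 and 170 TPM in DMSO, 176, 147 and 196 TPM at 3 h and 38.9, 42.2 and 40.2 TPM at 24 h. DMSO and 3 h overlapped, and every 24 h library was lower than all of them. BHLHA15 fell by 2.06 (SE 0.09, adjusted p = 2.5e-11). MT1G, a metallothionein, fell by 2.09, MYLK2 by 1.76, FOSB, an AP-1 subunit, by 1.73 and ASS1, the argininosuccinate synthase, by 1.5.

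The plasma cell circuit split between 3 h and 24 h. IRF4, which the series title names, was at 90.5, 81.7 and 103 TPM in DMSO, 86.9, 78.3 and 92 TPM at 3 h and 62.9, 63.6 and 60.1 TPM at 24 h. Its 3 h libraries overlapped DMSO, and its 24 h libraries lay below both. IRF4 fell by 0.45 from 3 h (SE 0.08, adjusted p = 5.35e-05), although its mean of 39.2 TPM at 6 h was lower than at 24 h. The fall was not called with spike-in scaling (-0.25, adjusted p = 0.283) and was larger with the length trend removed (-0.76).

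XBP1, the transcription factor of the secretory programme, was at 563, 527 and 546 TPM in DMSO, 681, 732 and 678 TPM at 3 h and 401, 399 and 395 TPM at 24 h, a fall of 0.80 (SE 0.04, adjusted p = 6.93e-11) to below DMSO. TNFRSF17 (BCMA), a surface receptor of plasma cells, was at 131, 123 and 116 TPM in DMSO, 132, 154 and 127 TPM at 3 h and 48.3, 50.9 and 50.9 TPM at 24 h, a fall of 1.44 (SE 0.06, adjusted p = 3.54e-11). In both genes the 24 h libraries lay below all others of the 3 groups. CCND2, the cyclin D2 gene, fell by 0.61, which was not called with spike-in scaling (-0.41, adjusted p = 0.0726).

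IKZF1 moved the other way. It was at 29.4, 25 and 32.9 TPM in DMSO, 13.5, 11.7 and 14.4 TPM at 3 h and 35.6, 33.9 and 33.1 TPM at 24 h, a rise of 1.31 (SE 0.09, adjusted p = 2.52e-09). It was called past DMSO in deposited TPM (0.23, adjusted p = 0.0235) and not with median-ratio scaling (0.04, adjusted p = 0.577). MEF2C rose by 0.95 to the DMSO range, from 13.6, 13.3 and 14.4 TPM at 3 h to 28.2, 27.3 and 26.7 TPM, but with median-ratio scaling it was called below DMSO at 24 h (-0.21, adjusted p = 0.000283). IKZF3 rose by 0.40 to a level not called against DMSO, a rise that was lost with the length trend removed (0.04, adjusted p = 0.359).

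Other lost regulators recovered in part. MAF, a myeloma oncogene, was at 403, 364 and 442 TPM in DMSO, 188, 167 and 200 TPM at 3 h and 277, 292 and 278 TPM at 24 h. It rose by 0.61 (SE 0.09, adjusted p = 1.58e-05), 54.6% of its loss on the log2(TPM + 1) scale, and its 3 groups did not overlap. PRDM1 rose by 0.56, 67.7% of its loss, and KLF2, a factor of lymphocyte quiescence, by 0.54, 25.4% of its loss. With median-ratio scaling the rises of MAF, PRDM1 and KLF2 were 0.41, 0.37 and 0.36, and with the length trend removed 0.29, 0.26 and 0.34, all still called.

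MYC, the proliferation factor, stayed low. It was at 799, 741 and 883 TPM in DMSO, 269, 251 and 280 TPM at 3 h and 320, 314 and 312 TPM at 24 h. The 24 h libraries lay above those of 3 h and far below DMSO. The rise of 0.24 (SE 0.06, adjusted p = 0.00161) was not called with median-ratio scaling (0.04, adjusted p = 0.37). The same held for POU2AF1, a B cell coactivator, with 0.24 in deposited TPM (adjusted p = 0.0142) and 0.04 with median-ratio scaling (adjusted p = 0.57). It also lost its call without replicate 2 of 3 h (0.17, adjusted p = 0.0752). SDC1 (CD138), the marker of plasma cells, was at 150, 139 and 157 TPM at 3 h and 158, 160 and 155 TPM at 24 h, which overlap, and was not called (0.08, adjusted p = 0.185), while with median-ratio scaling it was called lower (-0.12, adjusted p = 0.00439).

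The genes of the inhibited enzyme and its relative were not called between 3 h and 24 h, but both were called above DMSO at each time. EP300 stood 0.40 above DMSO at 3 h (limma adjusted p = 0.0248) and 0.55 at 24 h, and CREBBP 0.48 (adjusted p = 0.00668) and 0.70. In DMSO EP300 was at 21.5, 17.4 and 27.3 TPM and CREBBP at 16.1, 13.5 and 20.2 TPM, and in both genes the 3 h libraries overlapped these. With median-ratio scaling they stood 0.36 and 0.50 above DMSO at 24 h, both still called. At 6 h their means were 48.4 and 41.8 TPM, called above 3 h and above 24 h. EP300 was at 29.2, 23.3 and 35.6 TPM at 3 h and 34.1, 32.6 and 30 TPM at 24 h (0.15, adjusted p = 0.35), and CREBBP at 24.0, 18.5 and 28.4 TPM and 29.4, 27.0 and 25.2 TPM (0.22, adjusted p = 0.157). The 24 h libraries lay within the wide range of the 3 h libraries in EP300, and in CREBBP they overlapped it. CREBBP was called higher without replicate 3 of 3 h (0.35, adjusted p = 0.0239), and EP300 was called lower with the length trend removed (-0.21, adjusted p = 0.0327). BRD2, a BET protein gene, was at 13.4, 12.1 and 15.7 TPM in DMSO, 39.5, 35.7 and 43.3 TPM at 3 h and 14.6, 14.3 and 13.6 TPM at 24 h. It fell by 1.41 (SE 0.08, adjusted p = 6.71e-10) into the DMSO range, and with median-ratio scaling it was called below DMSO (-0.14, adjusted p = 0.0494).

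**Figure D4:**
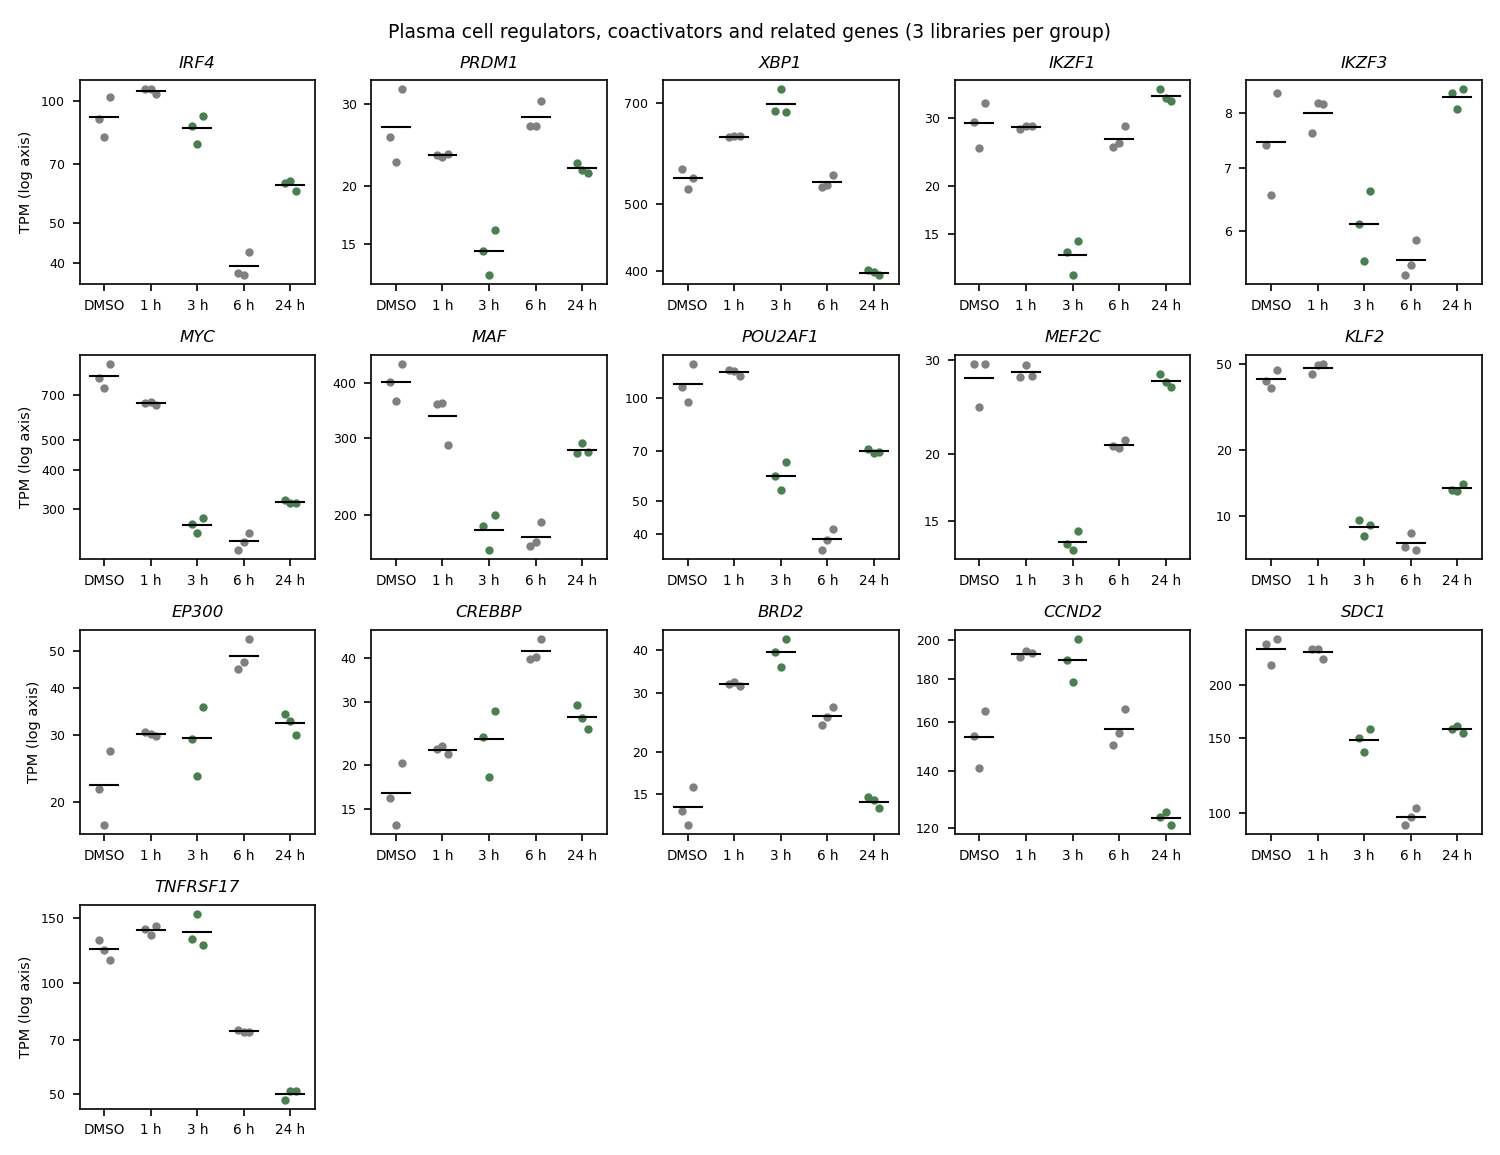
TPM (log axis, own range per gene) in each of the 15 libraries for 16 regulators, with points for libraries, black lines for group means and 3 h and 24 h in green. In these deposited TPM IKZF1, MEF2C and BRD2 came back to about DMSO by 24 h, MYC stayed near its 3 h level, and XBP1, TNFRSF17 and IRF4 were lower at 24 h than at 3 h.

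Gene lists give the same comparison by function, read against 56.2% of all genes higher and 19.9% lower and a median of 0.23. With median-ratio scaling, where 42.3% and 33.8% of all genes were higher and lower, each of the 29 list medians was lower, and 8 changed sign. With the length trend removed 10 changed sign, and with spike-in scaling 2. List counts under these settings are read against 4403 rises and 4578 falls over all genes with the length trend removed. For spike-in scaling the numbers over all genes are 5904 and 667. List counts at 3 h are read against 32% of all tested genes lost and 24.9% gained. Of all lost genes 50.1% went past DMSO, and of all gained genes 12.9%. At 24 h 15.2% of all tested genes were called below DMSO. Of 24 plasma cell transcription factors 17 rose and 5 fell (median 0.50). At 3 h 18 of the 24 had been lost, and by 24 h 4 of these were past DMSO, 7 not called against it, 6 back in part and 1 not called from 3 h. With median-ratio scaling 14 rose and 6 fell (median 0.31), and with the length trend removed 13 and 7 (median 0.17). IRF2 was at 13.4, 12.5 and 12.3 TPM at 3 h and 47.9, 44.1 and 42.7 TPM at 24 h, above the 31.2 to 34.4 TPM of DMSO, and rose by 1.74. IRF1, an interferon regulatory factor, rose by 1.5 to a level not called against DMSO, or called below it with median-ratio scaling (-0.12, adjusted p = 0.0435). B cell and plasma cell surface and coactivator genes moved both ways, with 11 of 27 higher and 11 lower (8 and 14 with median-ratio scaling, 6 and 14 with the length trend removed). CCR1, a chemokine receptor, rose by 1.6, and MZB1, a chaperone of immunoglobulin secretion, fell by 0.93, from 2233, 2307 and 2153 TPM to 1171, 1183 and 1163 TPM.

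Mitosis and G2/M genes rose for the most part: 47 of 52 were called higher and 3 lower (median 0.64). At 3 h 28 of them had been lost and 5 gained, and 27 of the lost ones ended above DMSO. The numbers were 41 higher and 4 lower with median-ratio scaling and 40 and 5 with the length trend removed. At 6 h 51 of the 52 were already called above 3 h, where 42.3% of all tested genes were. TOP2A, the mitotic topoisomerase, was at 97.1, 80.2 and 90.3 TPM in DMSO, 61.3, 63.2 and 63.9 TPM at 3 h and 149, 144 and 140 TPM at 24 h, without overlap, and rose by 1.19 (SE 0.06, adjusted p = 8.82e-11). CDC25C, a phosphatase that starts mitosis, rose by 1.40 and NUSAP1, a spindle protein, by 0.92. DNA replication and G1/S genes had 27 of 52 higher and 14 lower, but their median of 0.14 became -0.07 with median-ratio scaling (16 higher and 24 lower). Of cell cycle inhibitors and G1 cyclins CDKN1B (p27) rose by 0.71 and CCNG2 by 2.13, next to the fall of CDKN1A.

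Interferon-stimulated genes had 20 of 29 higher and 3 lower (median 0.52), with 18 and 5 under median-ratio scaling (median 0.33). At 3 h 19 had been lost, and 12 of these went past DMSO. SAMD9L was at 4.83, 4.18 and 4.90 TPM in DMSO, 1.33, 1.56 and 1.83 TPM at 3 h and 10.6, 9.63 and 9.61 TPM at 24 h, and rose by 2.09. IFI35 rose by 1.06, while ISG20, an exonuclease, fell by 1.84. MHC class I presentation genes had 14 of 16 higher and 0 lower in limma (median 0.38), also 0 lower at an unadjusted p under 0.05, while with median-ratio scaling 10 were called higher and 2 lower (median 0.19). PSMB9, an immunoproteasome subunit, rose by 0.66 and TAP1, a peptide transporter, by 0.67.

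Heat shock genes had 15 of 23 higher and 3 lower (median 0.30), after 15 had been lost at 3 h, and 12 and 8 with median-ratio scaling (median 0.10). BAG3, a co-chaperone, rose by 0.95 and SERPINH1, a collagen chaperone, by 1.26. Lysine acetyltransferase and deacetylase genes had 23 of 31 higher and 4 lower (median 0.40), 18 and 4 with median-ratio scaling (median 0.22) and 15 and 7 with the length trend removed (median 0.088). KAT2B (PCAF) was at 9.33, 7.60 and 9.44 TPM in DMSO, 5.12, 4.43 and 5.32 TPM at 3 h and 13.6, 13.5 and 13.6 TPM at 24 h, and rose by 1.29 (SE 0.08, adjusted p = 1.15e-09). All its 24 h libraries lay above DMSO. HDAC7 rose by 1.26 and the coactivator gene NCOA2 by 1.6. Autophagy and lysosome genes had 29 of 38 higher and 5 lower (median 0.28), but 18 and 8 with median-ratio scaling (median 0.079) and 18 and 10 with the length trend removed (median 0.067). Among the lower ones, the protease gene CTSB fell by 0.80 and SQSTM1 (p62), gained at 3 h, fell by 0.78.

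Genes of the secretory pathway fell. Of 40 ER chaperone and secretion genes 34 were lower at 24 h than at 3 h and 2 higher (median -0.57), with 36 and 1 under median-ratio scaling and 14 and 1 under spike-in scaling. At 3 h 19 had been gained, and 17 of these ended below DMSO. HSPA5 (BiP), the main ER chaperone, was at 718, 664 and 749 TPM in DMSO, 1033, 1077 and 1073 TPM at 3 h and 407, 405 and 397 TPM at 24 h, in 3 groups without overlap. It fell by 1.39 (SE 0.04, adjusted p = 5.93e-13). MANF fell by 0.93 and HSP90B1 (GRP94) by 0.87.

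Nucleolar ribosome biogenesis genes and MYC targets had 0 of 52 higher and 44 lower in limma (median -0.55), also 0 higher at an unadjusted p under 0.05, with 0 and 47 under median-ratio scaling and 0 and 21 under spike-in scaling. At 3 h 31 of them had been gained, of which 28 ended below DMSO. NOP56, a box C/D snoRNP protein, was at 386, 373 and 381 TPM in DMSO, 553, 564 and 558 TPM at 3 h and 293, 291 and 285 TPM at 24 h. It fell by 0.94 (SE 0.03, adjusted p = 4.21e-12), to below all DMSO libraries. POLR1C, a subunit of RNA polymerases I and III, fell by 1.24 and NOP16 by 1.23. Small nucleolar RNA host genes followed, with 3 of 24 higher and 19 lower (median -0.53) after 19 gains at 3 h. With spike-in scaling 3 were higher and 11 lower. SNHG12 fell by 1.38, SNHG1 by 1.12 and GAS5 by 0.91. Cytosolic ribosomal protein genes had 1 of 78 higher and 2 lower (median -0.0015), but 57 were called lower with median-ratio scaling and 45 with the length trend removed.

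Sterol and fatty acid synthesis genes had 2 of 31 higher and 26 lower (median -0.53), 29 lower with median-ratio scaling and 12 lower with spike-in scaling. Only 7 had been gained at 3 h and 13 had been lost, and 28 were below DMSO at 24 h (18 with spike-in scaling). IDI1, an isopentenyl diphosphate isomerase, was at 93.9, 85.4 and 86.8 TPM in DMSO, 139, 165 and 145 TPM at 3 h and 53.3, 51.0 and 51.3 TPM at 24 h. It fell by 1.51 (SE 0.06, adjusted p = 6.45e-12), and its 24 h libraries lay below DMSO. HMGCS1, the HMG-CoA synthase, fell by 1.31. Replication-dependent histone genes, whose transcripts mostly lack poly(A) tails and whose copies share reads, had 2 of 24 higher and 18 lower (median -0.67) after 14 gains at 3 h. With spike-in scaling 2 were higher and 13 lower. Metallothionein and zinc genes had 1 of 9 higher and 7 lower (median -1.05), or 1 and 5 with spike-in scaling. Of these MT1X fell by 1.64, from 183, 194 and 170 TPM to 56.8, 57.7 and 58.6 TPM.

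**Figure D5:**
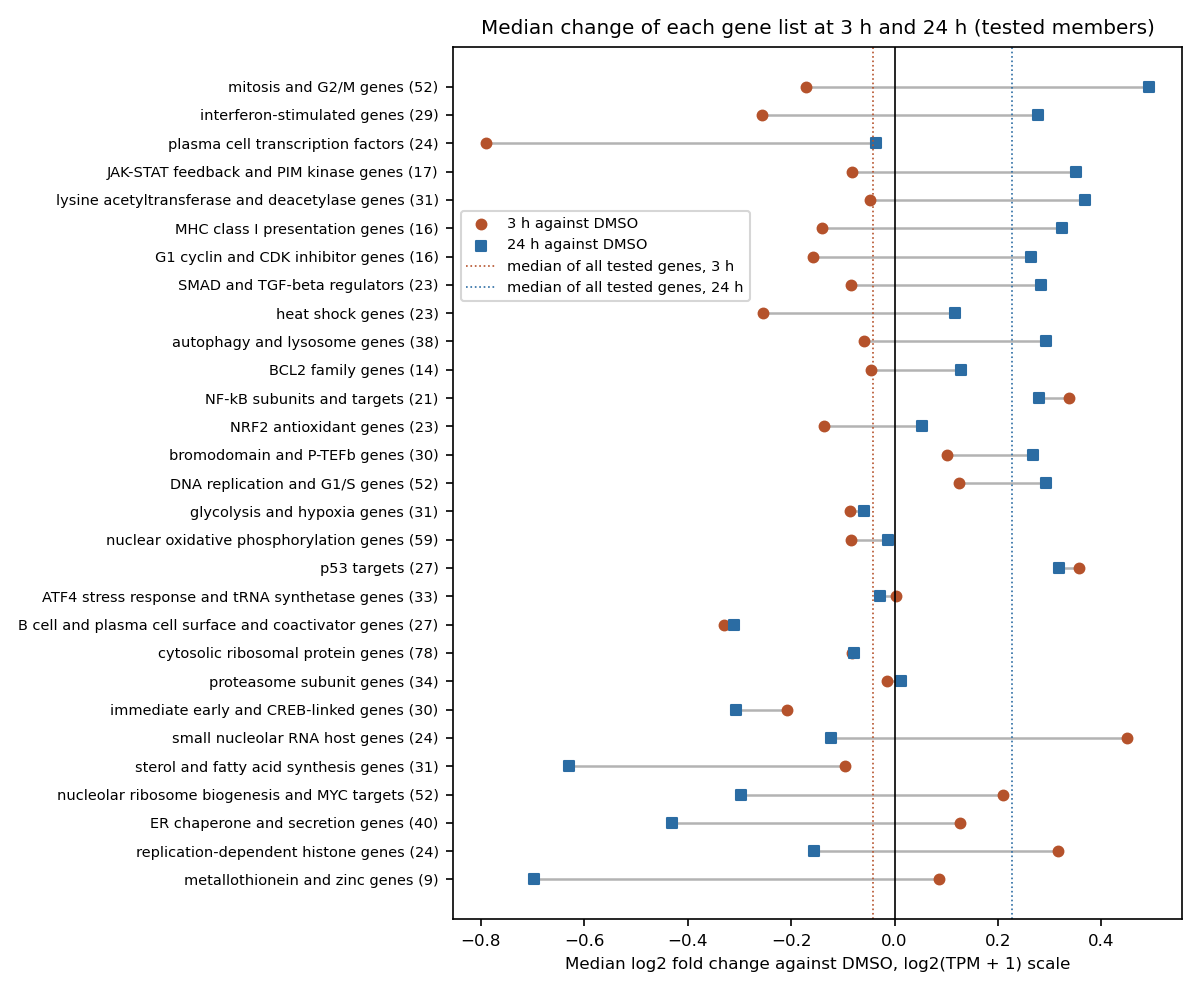
Median log2 fold change against DMSO (horizontal axis, log2(TPM + 1) scale) of the tested members of 29 gene lists (numbers of members in brackets) at 3 h (orange circles) and 24 h (blue squares), joined by grey lines, with dotted lines for the medians of all tested genes. Mitosis and interferon-stimulated genes lie left of DMSO at 3 h and right of it at 24 h, and ER, nucleolar, histone, metallothionein and small nucleolar RNA host genes the other way round. Deposited TPM place the median of all genes 0.23 above DMSO at 24 h.

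Other lists held members that moved in opposite directions. Of 27 p53 targets 10 rose and 10 fell in deposited TPM, 8 and 14 with median-ratio scaling and 7 and 17 with the length trend removed. TIGAR, a p53 target that regulates glycolysis, fell by 1.33 from 7.52, 8.61 and 7.77 TPM into the range of DMSO, or below DMSO with median-ratio scaling (-0.14, adjusted p = 0.0414). Of 21 NF-kB subunits and targets 11 rose and 8 fell (7 and 10 with median-ratio scaling). NFKBIA, the inhibitor of NF-kB, was at 23.8, 22.7 and 25.7 TPM in DMSO, 77.5, 74.1 and 78.5 TPM at 3 h and 29, 29.2 and 28.1 TPM at 24 h. Its fall of 1.38 (SE 0.05, adjusted p = 8.01e-12) left it above each DMSO library, though not called against DMSO with median-ratio scaling (0.06, adjusted p = 0.142). CD83 fell by 1.23. Immediate early and CREB-linked genes had 11 of 30 higher and 15 lower (11 and 19 with median-ratio scaling). Of 23 SMAD and TGF-beta regulators 14 rose and 5 fell, or 9 and 10 with the length trend removed, and SKIL, a SMAD corepressor, fell by 1.41. Bromodomain and P-TEFb genes had 14 of 30 higher and 7 lower in deposited TPM, 11 and 10 with median-ratio scaling and 10 and 15 with the length trend removed, and HEXIM1 and BRD2 were among the falls.

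Among JAK-STAT feedback and PIM kinase genes 10 of 17 rose and 4 fell (10 and 6 with median-ratio scaling). PIM2, a survival kinase of plasma cells, rose by 0.76 from 169, 159 and 176 TPM at 3 h to 290, 280 and 286 TPM at 24 h, below the 343 to 404 TPM of DMSO. IL6ST, the signalling chain of the IL-6 receptor, rose by 1.10 and STAT5B by 0.94. Of 14 BCL2 family genes 7 rose and 4 fell (7 and 6 with median-ratio scaling). BMF, a BH3-only death gene, was at 8.89, 8.21 and 9.58 TPM in DMSO, 1.48, 1.6 and 1.91 TPM at 3 h and 11, 10.1 and 10.6 TPM at 24 h. BMF rose by 2.12 (SE 0.08, adjusted p = 4.5e-12) and was past DMSO in deposited TPM but not with median-ratio scaling (0.04, adjusted p = 0.504). BAK1, a pore-forming death gene, rose by 0.76, and BCL2L1, which encodes BCL-XL, fell by 0.78.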

How the data were processed

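The deposited values are TPM, in a table of 26456 rows, 92 of them spike-ins, and 15 columns that each sum to 1000000. Per the labels, libraries were strand-specific, from mRNA selected and prepared with NEB reagents after Zymo column purification. Listed in the submitters' processing notes, without roles, are hg19 and the tools STAR, featureCounts, FastQC and MultiQC, and tool versions are not given in the sources used here. The column names give the 0 h libraries as untreated and the titles as DMSO, and they were matched by time and number. TPM keep no total depth, so no intervals of counting error are given, and low values rest on few reads.

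From these values log2(TPM + 1) was fitted with limma 3.58.1 in R 4.3.3 (lmFit, eBayes with trend) over 15 libraries and 5 groups, with Benjamini-Hochberg adjustment over 12002 genes and a threshold of 0.05. Fold changes on this scale understate those of low genes. Lost and gained mean called at 3 h against DMSO. Past DMSO, returned and partial mean called on the other side of DMSO, not called, and called on the 3 h side at 24 h. Data were simulated for this contrast over 12002 genes, with independent noise and 50 genes changed at each fold on the log2(TPM + 1) scale. Recovered were 29 of 50 genes changed 1.25-fold, 46 of 50 changed 1.5-fold and 50 of 50 changed 2-fold. There were 9 false calls among 184 (4.89%). The simulation had few changed genes and no shift between libraries, while the real contrast called 76.1% of genes. Its share of false calls therefore does not carry over to the real calls. Libraries of a group correlated with r of 0.995 to 0.9978 and 0 pairs were identical.

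Genes and lists were chosen with earlier results of these data known. Named are 19 regulators and, among genes of at least 5 TPM outside small RNA genes that were called in both contrasts under both scalings with libraries apart, the 8 or 6 largest changes of each class, the 5 largest rises and falls of genes not called at 3 h, and up to 3 members per list with the smallest adjusted p. Of the genes this rule names, 3 are not reported here. Promoters were matched by symbol, and transcript lengths (97.47% of tested genes) came from GENCODE. Alternatives were another pseudocount (0.1), other filters (5 TPM, none), 3 other scalings, small RNA genes left out, removal of the length trend, no variance trend, a replicate block, 3 groups only, stricter thresholds and each library left out. Python 3.11.15, pandas 2.3.3 and matplotlib 3.10.9 made tables and figures.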

Additional observations from a re-analysis of the deposited data

Results flagged for a closer look

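A change of side between 3 h and 24 h was found for 1923 genes called below DMSO at 3 h and above it at 24 h, with the difference between the times called as well in limma. CALHM2, CCR2 and ID3 are examples. The opposite change of side was found for 386 genes called above DMSO at 3 h and below it at 24 h, among them CDKN1A, INSIG1 and HSPA5. Both counts use the same DMSO libraries for the 2 times.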

How the results depend on the processing

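Counts of calls and of classes moved with the scaling, the length correction and stricter thresholds. With median-ratio scaling 4052 genes were lower at 24 h than at 3 h, 4458 higher and 3594 lower than in DMSO, 468 lost genes partial and 545 moved further, 951 gained genes past DMSO and 275 moved further, and 17 lists had more members lower than higher (9 in deposited TPM). With the length trend removed 4403 were higher and 4578 lower at 24 h than at 3 h, 4257 higher and 3687 lower than in DMSO, 1187 lost genes past DMSO, 435 partial and 551 further, 1151 gained genes past DMSO and 1213 returned, and 9 lists leaned up and 19 down. With spike-in scaling 667 were lower at 24 h than at 3 h, 411 higher and 2523 lower at 3 h than in DMSO, and 2439 higher and 657 lower at 24 h. Of lost genes 518 were then past DMSO, 1496 returned, 63 partial and 62 further, and of gained genes 42, 208, 15 and 10, with 136 not called. At an adjusted p under 0.01 the lost genes past DMSO were 1218, partial 154 and further 165, and the gained ones 248, 195 and 197. Asking for a change of at least 1 left 791 higher and 263 lower, 564, 73, 26 and 28 lost genes past DMSO, returned, partial and further with 3145 uncalled, 109, 76, 6 and 3 gained genes with 2797 uncalled, and 10 lists leaning up; these are fewer by construction.

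Of the 29 list medians 8 changed sign with median-ratio scaling, 10 with the length trend removed and 2 with spike-in scaling. That of ATF4 and tRNA synthetase genes (0.03) became -0.17 with median-ratio scaling, -0.23 with the length trend removed, -0.0063 with the 5 TPM filter, -0.0030 without spike-ins in the total, -0.012 without small RNA genes and -0.0011 without replicate 2 of 3 h (-0.0011 to 0.045 over the libraries left out). Under median-ratio scaling and the length correction NRF2 genes were at -0.038 and -0.10, DNA replication genes at -0.067 and -0.12, oxidative phosphorylation genes at -0.12 and -0.060, p53 targets at -0.11 and -0.25, glycolysis and hypoxia genes at -0.12 and -0.15, bromodomain and P-TEFb genes at -0.041 and -0.14 and B cell surface genes at -0.12 and -0.19. With spike-in scaling ribosomal protein and proteasome genes were at 0.20. NF-kB genes were at -0.11 with the 5 TPM filter and -0.086 with the length correction, and SMAD and TGF-beta regulators at -0.069 with the latter. SDC1 was at -0.12 with median-ratio scaling, PSMD7 at 0.016 with spike-in scaling, and POU2AF1, EP300 and SDC1 at -0.021, -0.21 and -0.18 with the length correction. With a pseudocount of 0.1 the low genes FOSB, EDN2 and CCNG2 were at -3.15, -2.46 and 3.27. For these changes the cause was not tested.

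Leaving out 1 of the 9 libraries of DMSO, 3 h or 24 h gave 6369 to 6876 higher and 2146 to 2470 lower genes, 1532 to 1990 lost and 322 to 395 gained genes past DMSO, and 311 to 631 gained genes moved further (311 without replicate 1 of 3 h). Same-numbered libraries of 3 h and 24 h did not deviate together (correlations of -0.045, 0.028 and -0.12). Between DMSO and 3 h they were -0.16, 0.34 and 0.43, where numbers 2 and 3 correlated best with their own and number 1 did not, and between DMSO and 24 h 0.032, 0.024 and -0.13, so the numbers were not taken to pair libraries. With the replicate number as a block 6792 genes were higher and 2409 lower at 24 h than at 3 h, 3035 were gained and 3915 lost at 3 h, and it changed the call of none of the 133 named genes. The pseudocount, no filter, no variance trend and the fit to 3 groups kept every count within 1.5 times.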

Other observations

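Counts for energy and protein turnover genes depended on the scaling. Of 59 nuclear oxidative phosphorylation genes 22 were higher at 24 h than at 3 h and 4 lower in deposited TPM (median 0.08), and 2 higher and 21 lower with median-ratio scaling. NDUFS1, a complex I subunit, was at 53.4, 54.7 and 56.0 TPM at 3 h and 79.4, 76.1 and 73.6 TPM at 24 h and rose by 0.47 (SE 0.04, limma adjusted p = 7.94e-08), a rise not called with the length trend removed (0.11, adjusted p = 0.164). Of 34 proteasome subunit genes 9 were higher and 7 lower in deposited TPM (median -0.0054), 2 and 24 with median-ratio scaling and 2 and 19 with the length trend removed. At 6 h 26 had been called above 3 h in deposited TPM, where 42.3% of all tested genes were. PSMD5, a proteasome assembly chaperone, rose by 0.61 from 3 h to 24 h.

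Of 31 glycolysis and hypoxia genes 14 were higher and 9 lower in deposited TPM, but 11 and 17 with median-ratio scaling and 9 and 17 with the length trend removed. ENO2, the neuronal enolase, was at 27.2, 25 and 27.6 TPM at 3 h and 68.0, 69.1 and 68.2 TPM at 24 h, above the 28.4 to 33.6 TPM of DMSO, and rose by 1.33 (SE 0.06, limma adjusted p = 1.35e-10). SLC2A3, a glucose transporter, rose by 1.25 and NDRG1, a hypoxia-inducible gene, fell by 1.11. Of 33 ATF4 stress response and tRNA synthetase genes 10 were higher and 11 lower in deposited TPM, but 6 and 21 with median-ratio scaling and 4 and 24 with the length trend removed. ATF5 fell by 1.11 and the amino acid transporter subunit SLC3A2 by 0.72, while PSPH, the last enzyme of serine synthesis, rose by 0.64. Of 23 NRF2 antioxidant genes 13 were higher and 4 lower (8 and 9 with median-ratio scaling), and FTH1, the ferritin heavy chain, rose by 0.64, from 2764, 2919 and 2850 TPM to 4387, 4437 and 4444 TPM. Of 16 G1 cyclin and CDK inhibitor genes 10 were higher and 4 lower (8 and 5 with median-ratio scaling).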
